A study of Ovis aries with 10 samples.

Results

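Collagens and laminins are the chains from which the extracellular matrix is built. Their levels were compared in the mediobasal hypothalamus, a block of ventral brain tissue that includes the median eminence, between the follicular and the luteal phase of the ovarian cycle of the ewe. The 54 members were all rows of the count table, of 33775 genes in all, whose symbol was that of a numbered collagen chain or of a laminin alpha, beta or gamma chain: 43 collagens and 11 laminins. They were divided by symbol into 17 basement membrane chains (6 type IV collagens and 11 laminins), 11 fibrillar collagens and 26 other collagens.

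The animals were adult Ile-de-France ewes, 10 in the follicular phase, when progesterone is low, and 10 in the luteal phase, when the corpus luteum secretes it. Within each phase, RNA of 2 ewes at a time was mixed at random in equal amounts into 5 libraries, so that n = 5 per phase and no library holds a single animal. The labels give no hormone treatment or surgery. Every p-value therefore rests on differences among mixes of distinct ewes.

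Each collagen molecule is a triple helix of 3 chains. Fibrillar collagens pack into banded fibres in vessel walls and meninges, while type IV collagen forms a sheet-like network. Laminins are trimers of an alpha, a beta and a gamma chain that bind integrins and dystroglycan on cell surfaces, and with type IV collagen they form the basement membrane that surrounds brain capillaries and lines the surface of the brain. In the median eminence such membranes separate nerve endings and tanycytes from the portal capillaries.

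Of the 54 chains, 52 had enough reads to be tested. The other 2 were LAMB4, with 0 to 2 reads in follicular and 3 to 5 reads in luteal libraries, and COL10A1, with 0 to 10 and 0 to 5 reads. Levels are CPM: read counts divided by library totals that TMM, a method that sets a common level for most genes, had scaled. CPM is not corrected for transcript length, so levels of different chains are not compared. The chains together took 0.241% to 0.309% of the reads in follicular and 0.291% to 0.330% in luteal libraries.

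More chains averaged higher than lower in luteal libraries, and none passed the test over all genes. The edgeR quasi-likelihood test called 0 of 52 members at an adjusted p under 0.05, as it called 0% of all 18276 genes tested, with adjusted p from 0.426 to 0.990 among the members. Limma-voom also called 0, DESeq2 called 2 (COL4A6 and COL27A1, both higher in luteal, against 0.0766% of all genes called higher), and voom weighted by library quality called 16 higher in luteal (against 15.3% of all genes). At an unadjusted p under 0.05 the edgeR test gave 11 members higher (21.2%, against 4.27% of all genes) and 0 lower (against 7.12%). At that p voom weighted by library quality gave 24 members higher (against 23.1% of all genes) and 0 lower (against 22.6%). Of the 52 members 39 were higher and 13 lower, where 51.5% of all genes were higher, and the median log2 fold change of luteal over follicular was 0.14 for the members and 0.01 for all genes. In bulk tissue, fewer cells of a type and less RNA per cell cannot be told apart.

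**Figure D1:**
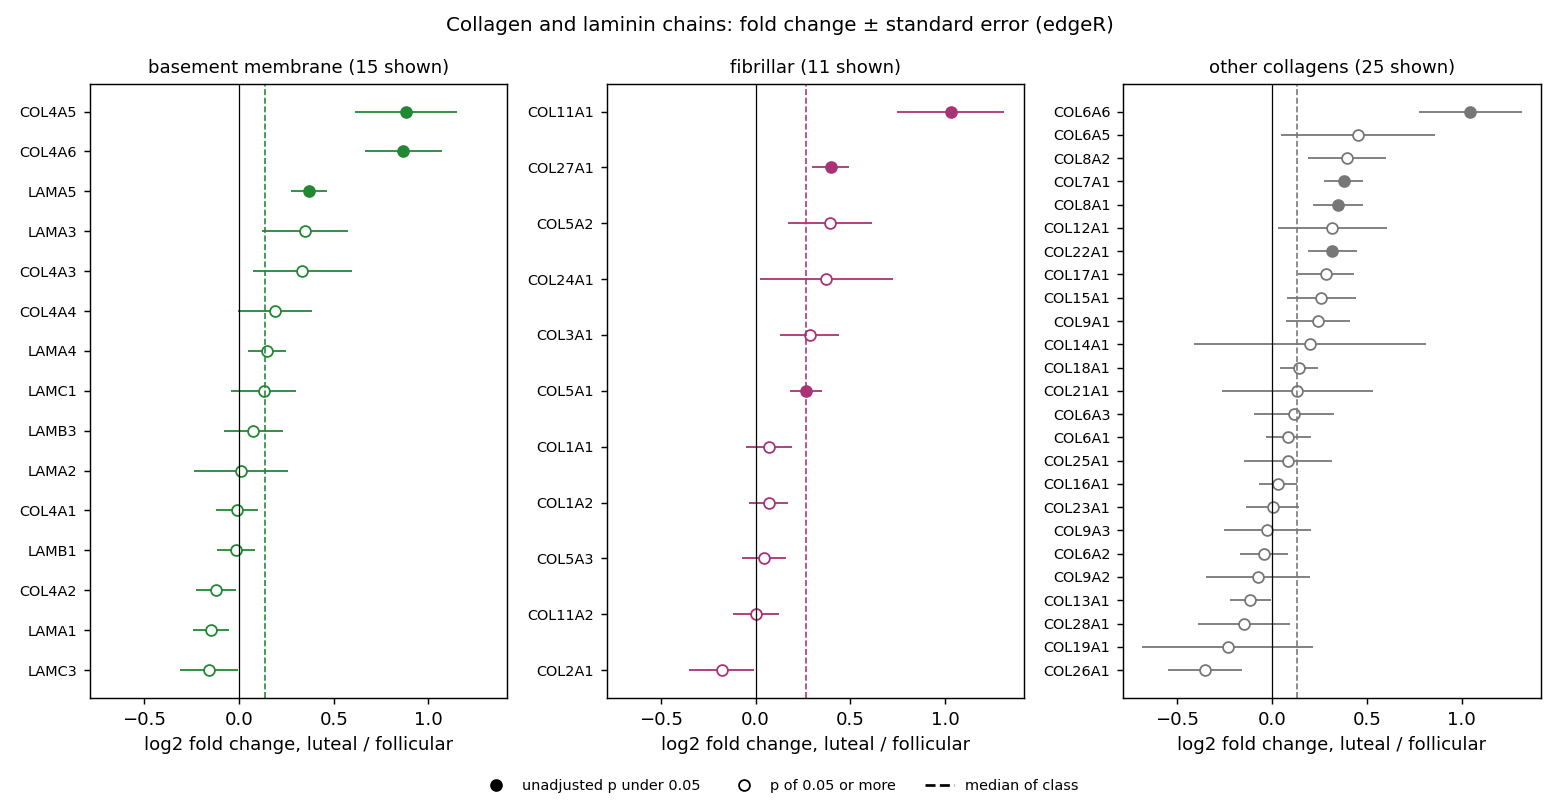
Log2 fold change of luteal over follicular with its standard error (horizontal axis) for 51 of the 52 tested chains (rows), from the edgeR fit of 5 against 5 libraries. Filled points have an unadjusted p under 0.05 and dashed lines are medians over all tested chains of a class, which were 0.14 for basement membrane chains, 0.27 for fibrillar collagens and 0.13 for other collagens; all 10 filled points lie to the right of 0.

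In each class more chains averaged higher than lower. In the basement membrane class 11 of 16 tested chains averaged higher in luteal libraries, and 4 of them had an unadjusted p under 0.05. In the fibrillar class 10 of 11 averaged higher, with 3 under 0.05, and among other collagens 18 of 25, with 4 under 0.05. The chains higher at that p made up 25.0%, 27.3% and 16.0% of the tested chains of these classes, against 4.27% of all genes. Of all genes 51.5% averaged higher. No member of any class was lower at that p (against 7.12% of all genes). The classes took 0.0600% to 0.0880% (basement membrane), 0.0592% to 0.0793% (fibrillar) and 0.115% to 0.142% (other) of reads in follicular libraries. In luteal libraries these shares were 0.0703% to 0.0850%, 0.0759% to 0.0904% and 0.144% to 0.160%. The shares overlapped between phases for basement membrane and fibrillar chains and narrowly did not for other collagens. They are shares of library totals that TMM had not scaled. TMM lowered the total of follicular 4 and raised that of luteal 3, and on scaled totals other collagens overlapped between phases too.

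Among the type IV collagens, COL4A5 and COL4A6 averaged higher in luteal libraries and the other 4 chains had an unadjusted p from 0.225 to 0.929. COL4A6 (gene 101113128) had 14.3, 18.3, 11.5, 14.9 and 27.3 CPM in follicular libraries 1 to 5 and 26.3, 34.2, 30.9, 32.1 and 34.5 CPM in luteal libraries 1 to 5. Follicular 5 was far above the other follicular libraries and slightly above luteal 1, the single overlap between the phases. The means were 17.3 ± 6.10 and 31.6 ± 3.30 CPM (SD over n = 5 libraries each; log2 fold change 0.87, SE 0.20; edgeR adjusted p = 0.426, DESeq2 adjusted p = 0.0423).

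COL4A5 (101112706), the chain that joins COL4A6 in 1 kind of type IV trimer and COL4A3 and COL4A4 in another, had 15.6, 26.2, 15.2, 14.5 and 35.4 CPM in follicular and 27.3, 40.3, 43, 34.0 and 53.2 CPM in luteal libraries. Follicular 5 again lay inside the luteal range, and the other follicular libraries lay below it. The log2 fold change was 0.88 (SE 0.27; unadjusted p = 0.00655, edgeR adjusted p = 0.426).

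COL4A1 and COL4A2 form the common type IV trimer of vascular basement membranes. Follicular and luteal means were 99.5 ± 9.89 and 98.8 ± 12.6 CPM for COL4A1 (SD over n = 5 libraries each) and 155 ± 18.9 and 142 ± 11.6 CPM for COL4A2. Both phases spanned much the same levels, 85.5 to 110.2 and 87.1 to 118 CPM for COL4A1 and 129 to 177 and 125 to 154 CPM for COL4A2. COL4A3, a chain known for its part in the kidney filter, averaged 8.16 ± 3.03 and 10.3 ± 2.79 CPM, and COL4A4, its partner there, 11.2 ± 2.95 and 12.8 ± 2.58 CPM. For these 2 chains follicular 5 and luteal 5 were the highest libraries of their phases.

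Seen within each library, COL4A5 and COL4A6 took a larger part of the type IV reads in most luteal libraries. Their share was 9.43%, 15.6%, 9.59%, 8.88% and 17.9% in follicular 1 to 5 and 16.9%, 22.2%, 22.8%, 18.8% and 25.1% in luteal 1 to 5, a mean of 12.3% ± 4.17 and 21.2% ± 3.29 (SD over n = 5 libraries each). Follicular 5 lay above luteal 1 and below the rest. The share of COL4A3 and COL4A4 was 6.13% ± 1.40 and 6.89% ± 1.40, and that of COL4A1 and COL4A2 81.6% ± 5.49 and 71.9% ± 4.66. These shares do not depend on the scaling of libraries, and since they were chosen after the chains' values had been seen they were not tested.

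**Figure D2:**
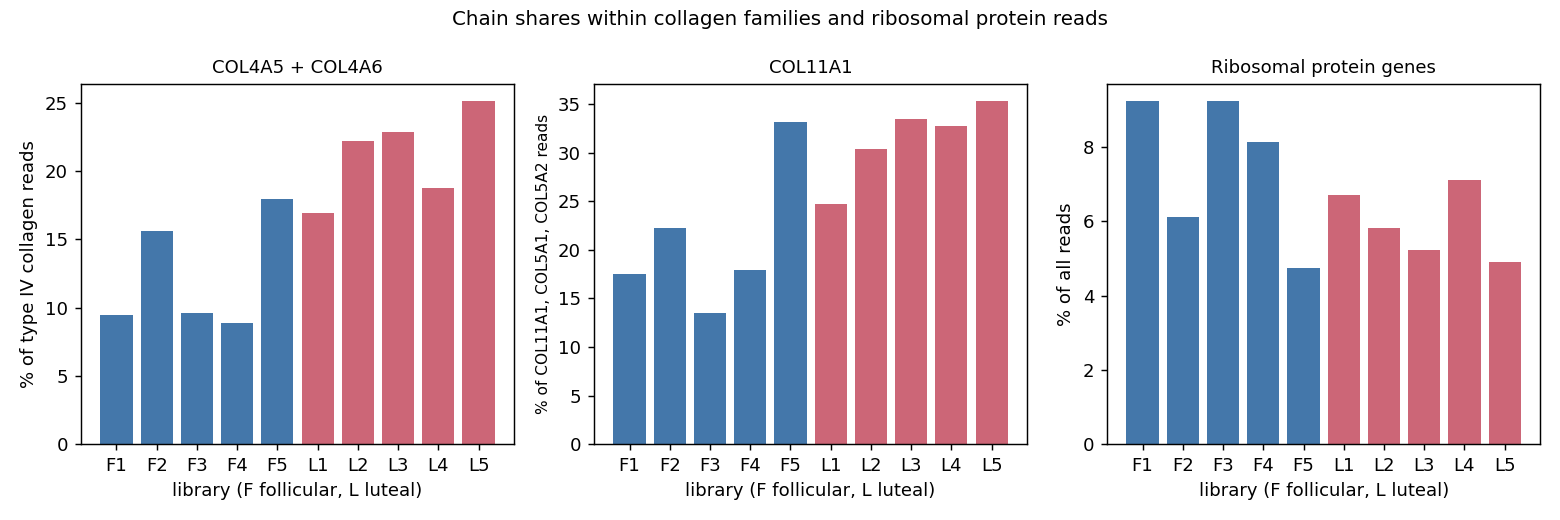
Left, COL4A5 and COL4A6 reads as a percentage of all type IV collagen reads; middle, COL11A1 as a percentage of COL11A1, COL5A1 and COL5A2 reads; right, ribosomal protein genes as a percentage of all reads (1 bar per library, F follicular, L luteal). Follicular 5 has the tallest follicular bar on the left (17.9%) and in the middle (33.2%) and the shortest bar of all on the right (4.73%).

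The share of reads from ribosomal protein genes ran opposite to the COL4A5 and COL4A6 share in both phases. These genes took 9.25%, 6.13%, 9.24%, 8.13% and 4.73% of reads in follicular 1 to 5 and 6.72%, 5.83%, 5.24%, 7.12% and 4.89% in luteal 1 to 5. The 3 follicular libraries with the lowest COL4A5 and COL4A6 share (1, 3 and 4) had the highest ribosomal protein shares, and follicular 5 the lowest. Luteal 1 and luteal 4, with the lowest luteal COL4A5 and COL4A6 shares, had the highest luteal ribosomal protein shares. Luteal 5, with the highest COL4A5 and COL4A6 share, had the lowest. Follicular 5 was the highest follicular library for 21 of the 52 tested chains and follicular 3 the lowest for 21. After adjustment for the leading principal component (51.0% of the variance between libraries), the log2 fold change was 0.60 for COL4A6, 0.45 for COL4A5 and 0.64 for COL11A1, and 11 members were higher at an unadjusted p under 0.05 (against 4.66% of all genes). Without follicular 1 and 3, 9 members were higher at that p (against 1.76% of all genes) and 0 lower (against 1.47%). This adjustment took the median from 0.27 to 0.07 for fibrillar chains and from 0.14 to -0.03 for basement membrane chains, and leaving out follicular 1 and 3 took them to 0.10 and 0.05. The medians of other collagens were 0.11 in both fits. Leaving out follicular 3 alone took the fibrillar median to 0.16 and that of other collagens to 0.088, and leaving out follicular 5 took that of basement membrane chains to 0.32. The part of this axis in the difference between phases was not tested.

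Among the laminin alpha chains, which carry the sites for cell surface receptors, LAMA5 averaged higher in luteal libraries. LAMA5 (101121444), a chain of mature vessel basement membranes, had 70.1, 70.4, 73.6, 62.1 and 71.9 CPM in follicular and 78.3, 101, 93.5, 94.4 and 82.6 CPM in luteal libraries. All 5 luteal libraries lay above all 5 follicular libraries, including follicular 5. The means were 69.6 ± 4.43 and 89.9 ± 9.17 CPM (SD over n = 5 libraries each; log2 fold change 0.37, SE 0.09; unadjusted p = 0.00215, edgeR adjusted p = 0.426).

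The other alpha chains had log2 fold changes smaller than that of LAMA5. LAMA4, the other main endothelial alpha chain, averaged 43 ± 4.43 and 47.6 ± 3.97 CPM, and LAMA1, a chain of the pial and early embryonic basement membranes, 35.2 ± 2.16 and 31.8 ± 2.98 CPM (log2 fold change -0.15, SE 0.10; edgeR adjusted p = 0.459). LAMA3, which belongs to epithelial laminin, averaged 2.91 ± 0.95 and 3.73 ± 0.57 CPM. Its log2 fold change of 0.35 (SE 0.23, edgeR adjusted p = 0.460) was close to that of LAMA5, with a larger SE. LAMA2, the chain of muscle and of the astrocyte side of brain vessels, had 28.2, 26.3, 24.6, 27.9 and 62.0 CPM in follicular libraries and 25.1 to 39.6 CPM in luteal libraries. Follicular 5 was above every other library, and the log2 fold change of 0.01 (SE 0.25) became 0.35 without it. Of all laminin alpha reads LAMA5 made up 38.0% ± 3.90 in follicular and 43.3% ± 2.18 in luteal libraries, and LAMA1 19.2% ± 1.86 and 15.4% ± 2.1. For LAMA5 follicular 3, at 42.7%, lay above luteal 1, 3 and 5 (41.0%, 42.5% and 42.0%). For LAMA1 luteal 1, at 19.1%, lay within the follicular range of 16.1% to 20.8%. These shares were not tested.

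The beta and gamma chains described here had an unadjusted p above 0.05 in the fit with phase alone. LAMB3, a beta chain that joins LAMA3, averaged 41.3 ± 6.69 and 43.5 ± 8.44 CPM (SD over n = 5 libraries each). LAMB1 and LAMC1, found in most laminins, averaged 59.5 ± 5.75 and 58.8 ± 5.19 CPM and 36.6 ± 8.82 and 40.1 ± 7.31 CPM. LAMC3, a gamma chain needed for normal folding of the human cortex, averaged 73.9 ± 13.3 and 66.3 ± 11.5 CPM. Their log2 fold changes were 0.08 (SE 0.16) for LAMB3, -0.02 (SE 0.10) for LAMB1, 0.13 (SE 0.17) for LAMC1 and -0.16 (SE 0.15) for LAMC3.

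**Figure D3:**
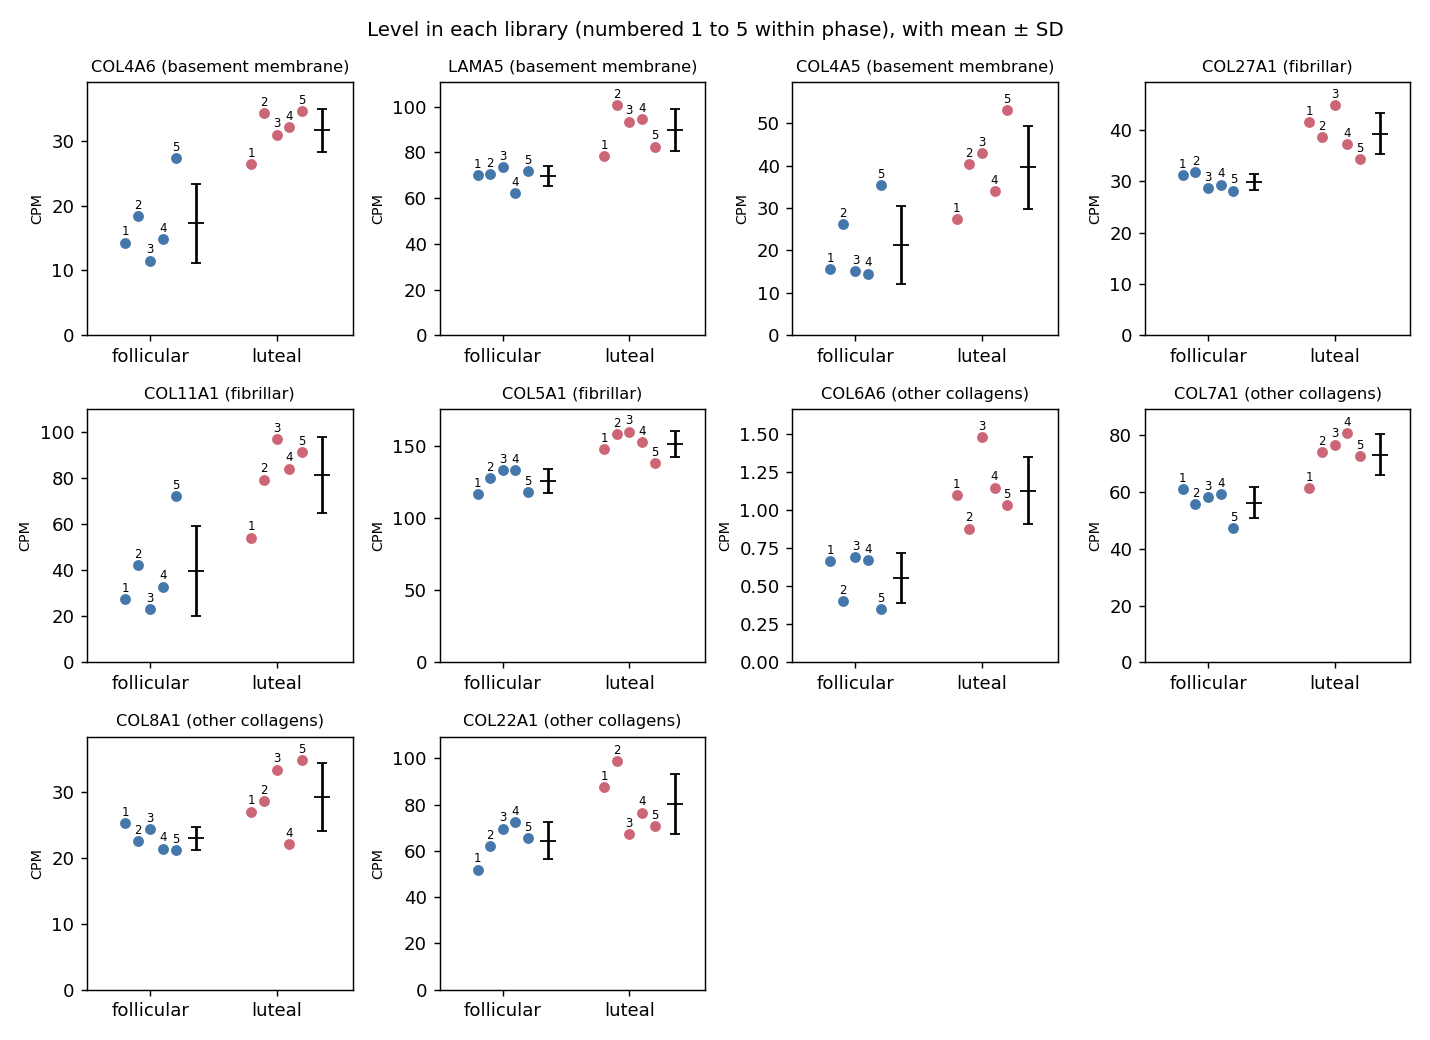
CPM (vertical axes, from 0) of 10 of the 11 chains with an unadjusted p under 0.05 in each follicular (blue) and luteal (red) library, numbered 1 to 5 within a phase, with the mean and SD in black. LAMA5, COL27A1, COL5A1, COL6A6 and COL7A1 do not overlap between phases, while in COL4A6, COL4A5 and COL11A1 follicular 5 reaches into the luteal range.

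In the fibrillar class COL27A1, COL11A1 and COL5A1 had the smallest p. The related type V and XI chains COL5A3 and COL11A2 had an edgeR unadjusted p of 0.716 and 0.981. Those of the type I chains COL1A2 and COL1A1 were 0.509 and 0.571. COL27A1 (101119374), a fibrillar collagen of developing cartilage and other tissues, had 31.1, 31.8, 28.7, 29.4 and 28.2 CPM in follicular and 41.5, 38.6, 44.8, 37.3 and 34.3 CPM in luteal libraries. All luteal libraries were above all follicular ones, and the follicular spread was small. The means were 29.8 ± 1.58 and 39.3 ± 4.04 CPM (SD over n = 5 libraries each; log2 fold change 0.40, SE 0.10; edgeR adjusted p = 0.426, DESeq2 adjusted p = 0.0423).

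COL5A1 (101107777), a type V chain that starts the assembly of type I fibrils and sets their width, had 116, 127, 133, 133 and 118 CPM in follicular and 147, 158, 159.8, 152 and 138 CPM in luteal libraries. These phases also did not overlap. The log2 fold change was 0.27 (SE 0.08; unadjusted p = 0.00755, edgeR adjusted p = 0.426).

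COL11A1 (101117548), a type XI chain closely related to COL5A1, had 27.6, 42.3, 23.0, 32.9 and 72.1 CPM in follicular and 54.1, 79.2, 96.9, 84.0 and 91.4 CPM in luteal libraries. Follicular 5 lay above luteal 1, and the other follicular libraries below every luteal one. The log2 fold change of 1.03 (SE 0.28; unadjusted p = 0.00333, edgeR adjusted p = 0.426) was the highest of the fibrillar chains. COL11A1 took 20.9% ± 7.53 of the reads of COL11A1, COL5A1 and COL5A2 in follicular and 31.3% ± 4.10 in luteal libraries. In this share follicular 5, at 33.2%, lay above luteal 1, 2 and 4 (24.7%, 30.3% and 32.8%). The share was not tested.

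The type I and III collagens, the bulk of fibrous connective tissue, had an unadjusted p above 0.05. COL1A1 averaged 145 ± 13.2 and 152 ± 24.4 CPM and COL1A2 168 ± 19.3 and 176 ± 13.8 CPM (SD over n = 5 libraries each), with log2 fold changes of 0.07 (SE 0.12) and 0.07 (SE 0.10). COL3A1, which accompanies type I collagen in vessel walls, had 36.5, 47.9, 33.1, 44.5 and 57.6 CPM in follicular and 43.7, 55.5, 64.7, 54.0 and 50.0 CPM in luteal libraries. The phases overlapped widely, with a log2 fold change of 0.29 (SE 0.16; unadjusted p = 0.0938, edgeR adjusted p = 0.433). Of the remaining fibrillar chains COL5A2, COL24A1, COL5A3 and COL11A2 had log2 fold changes from 0.00 to 0.39, and COL2A1, the cartilage collagen, was the only fibrillar chain that averaged lower (-0.18, SE 0.17).

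Among the other collagens, COL7A1, COL6A6, COL8A1 and COL22A1 had the smallest p. COL7A1 (101119261), the anchoring fibril collagen of skin, had 61.1, 55.7, 58.3, 59.2 and 47.2 CPM in follicular and 61.5, 74.0, 76.7, 80.8 and 72.7 CPM in luteal libraries. Luteal 1 lay just above follicular 1, so that the phases did not overlap (log2 fold change 0.38, SE 0.10; unadjusted p = 0.00329, edgeR adjusted p = 0.426).

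COL6A6 (101111424), a type VI chain, had only 11 to 18 reads in follicular and 34 to 47 reads in luteal libraries. That gave 0.67, 0.40, 0.69, 0.67 and 0.35 CPM in follicular and 1.10, 0.88, 1.48, 1.15 and 1.04 CPM in luteal libraries, again without overlap. The log2 fold change was 1.05 (SE 0.27; edgeR adjusted p = 0.426).

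COL8A1 (101107564), a network collagen of vessel walls, had 25.2, 22.5, 24.4, 21.4 and 21.1 CPM in follicular and 27.0, 28.6, 33.4, 22.1 and 34.8 CPM in luteal libraries. Luteal 4 lay within the follicular range and the other luteal libraries above it (log2 fold change 0.35, SE 0.13; edgeR adjusted p = 0.426). COL22A1 (101119401), a collagen of tissue junctions, had 51.9, 62.1, 69.7, 72.4 and 65.7 CPM in follicular and 87.7, 98.9, 67.2, 76.5 and 70.6 CPM in luteal libraries. Its phases overlapped, luteal 3 and 5 lying below follicular 4 (log2 fold change 0.32, SE 0.13; edgeR adjusted p = 0.426). Leaving out luteal 5 took the unadjusted p of COL8A1 to 0.0607, and leaving out luteal 2 took that of COL22A1 to 0.0926.

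In all, 5 of the 52 tested members had every luteal library above every follicular library: LAMA5, COL27A1, COL5A1, COL6A6 and COL7A1. Over all genes tested this held for 0.607%. The untested LAMB4 had the same order, at the few reads given above. The opposite order held for 0 members and for 0.514% of all genes.

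The remaining 21 tested chains of this class had an unadjusted p above 0.05. COL18A1 and COL15A1, basement membrane collagens that carry heparan or chondroitin sulphate and release the fragments endostatin and restin, averaged 197 ± 13 and 218 ± 24.7 CPM and 12 ± 2.34 and 14.4 ± 3.08 CPM (SD over n = 5 libraries each; log2 fold changes 0.14, SE 0.10, and 0.26, SE 0.18). The beaded-filament chains COL6A1, COL6A2 and COL6A3 averaged 99.2 ± 8.16 and 105 ± 17.0, 161 ± 19.2 and 156 ± 24.2, and 25.9 ± 7.99 and 28.1 ± 6.22 CPM. COL9A3, a type IX chain that coats fibrils, had 55.9, 133, 117, 167 and 129 CPM in follicular and 95.7 to 133 CPM in luteal libraries, with follicular 1 the lowest and follicular 4 the highest library of all. COL25A1, a transmembrane collagen of neurons, averaged 3.79 ± 0.59 and 4.01 ± 1.22 CPM. The most negative log2 fold change of any tested member was that of COL26A1, -0.36 (SE 0.20; unadjusted p = 0.0942, edgeR adjusted p = 0.433), at 8.52 ± 1.00 and 6.64 ± 1.77 CPM.

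The chains differed in how steady they were between libraries. The coefficient of variation over the 5 libraries of a phase had a median over the 52 chains of 17.7% in follicular and 16.5% in luteal libraries, against 21.5% and 18.9% over all genes tested. It was lowest for COL16A1 in follicular (4.60%) and COL5A1 in luteal libraries (5.89%), and in both phases highest for COL14A1 (73.4% and 68.4%). COL14A1, a fibril-associated collagen, had 21.3, 14.6, 83.3, 40.7 and 26.8 CPM in follicular and 17.2, 60.7, 5.96, 57.9 and 72.3 CPM in luteal libraries. Each phase held both low and high libraries, and the log2 fold change of 0.20 had an SE of 0.61.

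Type IV genes lie in head-to-head pairs in mammals, COL4A1 with COL4A2, COL4A3 with COL4A4 and COL4A5 with COL4A6, each pair sharing a control region between its start sites. The first 2 pairs are next to each other in the gene order of sheep assembly ARS-UI_Ramb_v3.0. Over the 10 libraries COL4A5 and COL4A6 followed each other (Pearson r = 0.947, Spearman rho = 0.903; permutation p = 3e-05 and 0.00092, adjusted over 7 pairs 0.00021 and 0.00322), as did COL4A3 and COL4A4 (r = 0.918, rho = 0.952; permutation p = 7e-05 and 8e-05, adjusted 0.000245 and 0.00056). COL4A1 and COL4A2 did not (r = 0.133, rho = 0.127; permutation p = 0.712 and 0.735, adjusted 0.716 and 0.735). Leaving out the 2 libraries farthest from the median of the first chain gave r = 0.920, 0.851 and 0.245 for these pairs in the same order. After each phase was centred on its own mean r was 0.885, 0.907 and 0.126 (permutation adjusted p = 0.00168, 0.00203 and 0.8). Spearman's rho was then 0.891 for COL4A5 with COL4A6 and 0.709 for COL4A3 with COL4A4 (adjusted permutation p = 0.00791 and 0.0631), so that within phases the second relation passed by r alone.

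The points of each correlation share a library's RNA, depth and scaling. COL4A5 was also 39th among the 18275 other genes in likeness to COL4A6 by Pearson r, and COL4A6 155th for COL4A5. For the pair COL4A3 and COL4A4 these ranks were 408 and 619, so many genes outside the family followed each of these chains as closely or more.

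The other partner chains, which join in 1 trimer, had a lower r than these 2 type IV pairs. COL1A1 and COL1A2 had r = 0.134 (rho = 0.309; permutation p = 0.716 and 0.386, adjusted 0.716 and 0.45), LAMB1 and LAMC1 r = 0.585 (rho = 0.527; permutation p = 0.0798 and 0.125, adjusted 0.14 and 0.219), and COL9A1 and COL9A2 r = 0.206 (rho = 0.321; permutation p = 0.574 and 0.367, adjusted 0.716 and 0.45). COL6A1 and COL6A2, also neighbours, had r = 0.711 (rho = 0.661; permutation p = 0.0216 and 0.044, adjusted 0.0505 and 0.103). Without the 2 libraries farthest out r was 0.0758, 0.374, -0.0237 and 0.611. By rank among the 18275 other genes COL6A2 was 124th for COL6A1, and COL6A1 680th for COL6A2, much as in the 2 type IV pairs. LAMC1 was 327th for LAMB1, but LAMB1 4990th for LAMC1. The ranks were 7411 and 7566 for COL1A1 with COL1A2 and 4781 and 7896 for COL9A1 with COL9A2. The differences between these correlations were not tested.

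**Figure D4:**
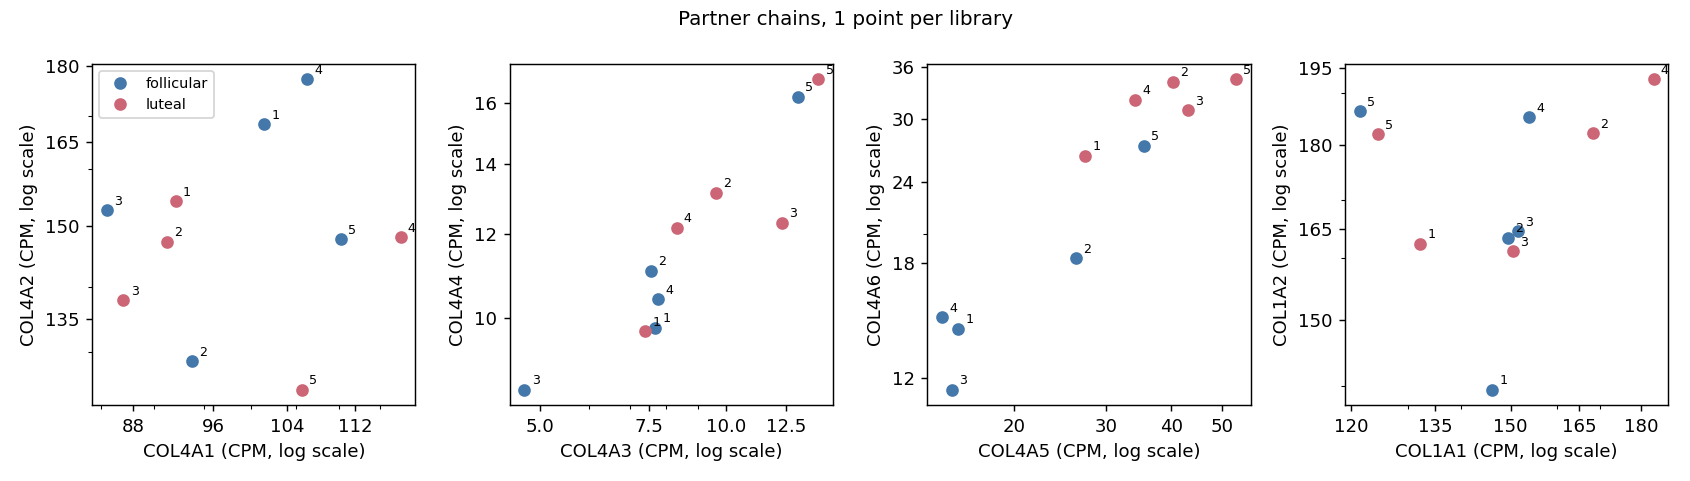
Levels of 4 pairs of partner chains in each library (CPM on logarithmic axes, 1 numbered point per library, follicular blue, luteal red). COL4A3 with COL4A4 (r = 0.918) and COL4A5 with COL4A6 (r = 0.947) lie along a line and COL4A1 with COL4A2 (r = 0.133) and COL1A1 with COL1A2 (r = 0.134) do not.

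Among genes that act on these chains edgeR called 0 in each list. Of 14 basement membrane partners, such as nidogens and perlecan, 9 averaged higher and 5 lower. At an unadjusted p under 0.05 1 of them was higher (7.14%, against 4.27% of all genes). This was PAPLN, papilin, at 4.83 ± 0.89 and 7.05 ± 1.70 CPM (log2 fold change 0.55, SE 0.20, edgeR adjusted p = 0.426). NID2, a nidogen that links laminin to type IV collagen, averaged 3.31 ± 1.34 and 4.99 ± 1.38 CPM. Of 29 genes of collagen synthesis and crosslinking 17 were higher and 12 lower, with 0 under an unadjusted p of 0.05. The 2 with the smallest p averaged lower in luteal: PPIB, a proline isomerase of the endoplasmic reticulum, at 577 ± 110.0 and 437 ± 115 CPM, and P3H3, a prolyl hydroxylase family member, at 285 ± 77.1 and 209 ± 57.4 CPM.

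Of 16 genes of matrix proteolysis 2 were higher and 1 lower at an unadjusted p under 0.05 (12.5% and 6.25%, against 4.27% and 7.12% of all genes). MMP2, a gelatinase that cuts type IV collagen, averaged 22.3 ± 9.58 and 39.0 ± 6.31 CPM (SD over n = 5 libraries each; log2 fold change 0.80, SE 0.26), and MMP14, the membrane protease that activates it, 10.0 ± 6.31 and 18.0 ± 3.81 CPM (0.83, SE 0.35). TIMP1, an inhibitor of many secreted matrix proteases, averaged 123 ± 37.4 and 77.7 ± 28.0 CPM (-0.67, SE 0.26). None passed edgeR over all genes. Of 15 receptors 1 was higher at that p (6.67%), the laminin receptor subunit ITGA7, at 215 ± 23.0 and 252 ± 12.4 CPM. ITGA6, another such subunit, averaged 25.4 ± 5.67 and 31.6 ± 5.47 CPM. Of 10 genes of TGF-beta signalling, which drives collagen transcription in many cells, 2 were higher at that p (20.0%, against 4.27% of all genes). These were SMAD3, a transducer, at 32.1 ± 1.44 and 40.3 ± 3.13 CPM, and TGFBR2, a receptor, at 36.9 ± 10.8 and 55.8 ± 9.43 CPM. The median log2 fold changes of these lists were 0.09 for partners, 0.07 for synthesis, 0.09 for proteolysis, 0.15 for receptors and 0.28 for TGF-beta signalling, against 0.01 over all genes. After adjustment for the leading principal component the medians were 0.06, -0.0040, 0.11, 0.03 and 0.05 in the same order.

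Cell type markers were read for the kinds of cells that may have contributed RNA, which their detection in bulk tissue does not settle. Their summed levels do not measure the makeup of the tissue, since 1 gene can dominate a sum. At an unadjusted p under 0.05, 4.27% of all genes were higher and 7.12% lower. The 6 markers of the mediobasal hypothalamus (POMC, AGRP, TAC3, KISS1, GHRH and RAX) were all detected, with summed levels of 898 to 1894 CPM in follicular and 821 to 1523 CPM in luteal libraries. In luteal libraries 5 of the 6 averaged lower (median log2 fold change -0.39, 0 under an unadjusted p of 0.05). After adjustment for the leading principal component this median was 0.21, and without follicular 1 and 3 it was -0.10. The 4 analysed pituitary hormone genes summed to 2665 to 4253 and 1924 to 4187 CPM, so that pituitary RNA was present in every library. Of these 3 averaged lower in luteal libraries, 1 of them under 0.05: CGA, the subunit shared by the glycoprotein hormones, at 2033 ± 245 and 1343 ± 341 CPM (SD over n = 5 libraries each; log2 fold change -0.60, SE 0.17; edgeR adjusted p = 0.426), with every luteal library below every follicular one. Of 4 neuronal markers 2 averaged lower and 2 higher (1 lower under 0.05, RBFOX3, log2 fold change -0.45, SE 0.18; summed levels 726 to 829 and 595 to 838 CPM). All 4 oligodendrocyte markers averaged lower (0 under 0.05, 608 to 1163 and 418 to 1034 CPM). Of 5 astrocyte markers 3 averaged higher and 2 lower (0 under 0.05, 3585 to 4615 and 2863 to 4548 CPM). Most of the astrocyte sum was GFAP, 1 of the 2 lower, at 3568 ± 421 and 2804 ± 783 CPM. Of markers of cells that make these chains, 8 of 9 endothelial genes averaged higher in luteal libraries (2 at an unadjusted p under 0.05, CDH5 and TEK), with summed levels of 231 to 302 and 253 to 302 CPM. Of 8 mural genes 4 were higher (1 under 0.05, NOTCH3; 408 to 523 and 443 to 506 CPM), and of 8 fibroblast and meningeal genes 5 (0 higher and 1 lower under 0.05, FBLN1; 516 to 580 and 483 to 607 CPM). All 6 tested choroid plexus genes were higher (1 under 0.05, SLC4A5), with 20.6 to 57.3 and 34.4 to 116 CPM over 7 genes. No marker in the endothelial, mural, fibroblast and choroid plexus lists was at 0 in all libraries; the lowest were OTX2 of the choroid plexus list and ASPN of the fibroblast list, at means of 0.149 and 0.435 CPM. After the same adjustment the median log2 fold change went from -0.08 to 0.26 for pituitary and from 0.26 to 0.06 for astrocyte markers. It went from -0.29 to -0.15 for oligodendrocyte and from -0.10 to -0.09 for neuronal markers. The other medians went from 0.16 to 0.13 (endothelial), 0.08 to 0.06 (mural), 0.08 to 0.02 (fibroblast and meningeal) and 0.78 to 0.67 (choroid plexus). The part of any of these cells in the chains' values was not tested.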

How the data were processed

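The data were reads per gene in 10 RNA sequencing libraries of ewe mediobasal hypothalamus, 5 per phase, assigned by their titles. The authors deposited raw counts, whole numbers without normalisation, in a single table of 33775 genes. Per the labels' protocols, libraries were made with a stranded mRNA kit. Among the tools in the submitters' processing notes are the aligner TopHat2 2.1.1 and the read counter featureCounts 2.0.0. The sources used here do not give the genome build, the strand setting or the handling of shared reads. Whether reads of genes that overlap on opposite strands were told apart is therefore not known. Library totals were between 20644992 and 43193449 reads in follicular and between 28571863 and 42358557 reads in luteal libraries.

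By identifier, all 54 members were found under the same symbol in the RefSeq genes of ARS-UI_Ramb_v3.0, from which 449 symbols of other genes were taken. Members, classes, lists and rules were chosen with earlier results of these data known. Transcript lengths and sequences were not used here.

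The model, with phase alone, was fitted to all libraries by edgeR 4.0.16 (R 4.3.3), with a two-sided quasi-likelihood test. Genes were kept by filterByExpr with a minimum count of 10 and a minimum total of 15, and scaled by TMM, so that 18276 genes were tested. Adjusted p-values are Benjamini-Hochberg values over all these genes, with a threshold of 0.05. Standard errors (SE) are the log2 fold change divided by the square root of the F statistic. The biological coefficient of variation was 25.1%. The test was checked on simulated counts. By a chi-square comparison over genes, each of the 45 pairs of libraries differed beyond sampling noise. Partner pairs were set by gene position or trimer and correlated on log2 CPM (prior count 2) with 100000 permutations, two-sided.

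The 4 chains of each class with the smallest p and a fixed set were described in full, except 1 member that is not reported here but stands in all counts, and up to 2 genes of each partner list were named, with MMP14, OTX2 and ASPN named beyond these. The choice of these 3 genes, and of remaining members singled out such as COL14A1 and COL26A1, followed a look at their values. The alternatives changed the scaling (RLE, upper quartile), the filter (none, or 1 CPM in 5 libraries), the dispersion (robust), the model (replicate number as a block), the tool (DESeq2 1.42.0, limma-voom of limma 3.58.1 with and without library weights) or the libraries (without each, and without follicular 1 and 3). Adjustment for the leading principal component was added after seeing the data.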

Additional observations from a re-analysis of the deposited data

Results flagged for a closer look

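In 4 of 104 groups of 5 libraries (52 tested chains in 2 phases) the highest or lowest library stood apart from the nearest of its phase by more than Dixon's 95% limit of 0.71 of the phase's range. Chance gives about 1 in 20, or 5.2. Follicular 5 was the library in 3 of them. It had 62.0 CPM of LAMA2 against at most 28.2 CPM in the other follicular libraries (ratio 0.904) and 51.9 CPM of LAMC1 against at most 36.5 CPM (0.745). It was lowest in COL1A1, with 122 CPM against at least 146 CPM (0.760). Follicular 1 was low in COL6A5, with 0.10 CPM, or 2 reads, against at least 0.37 CPM (0.758).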

How the results depend on the processing

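The number of members called was 0 in every fit except DESeq2 (2) and voom with quality weights (16). The number higher in luteal at an unadjusted p under 0.05 was 9 to 16 in every fit (16 without follicular 5, against 17.9% of all genes) except voom with quality weights (24, against 23.1%). The number lower was 0, except 1 with the replicate block and 0 to 1 when single libraries were left out (1 without luteal 1 and 1 without luteal 2). The labels number the replicates and state no pairing between phases. Deviations of same-numbered libraries correlated from -0.33 to 0.63, and 4 of the 10 libraries correlated best with their own number. These values cannot decide whether same-numbered libraries share anything, which was not tested. With the block 12 members were higher at that p, against 12.1% of all genes.

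The fibrillar median was 0.10 without follicular 1 and 3 and 0.074 after adjustment for the leading principal component, where that of basement membrane chains turned to -0.032. Without single libraries the medians ran from 0.16 (follicular 3) to 0.30 for fibrillar, from 0.11 to 0.32 (follicular 5) for basement membrane and from 0.088 (follicular 3) to 0.18 for other chains. The correlation of COL6A1 with COL6A2 passed at a prior count of 0.5 (r = 0.711, permutation adjusted p = 0.0497) and after centring on each phase (r = 0.767, adjusted p = 0.0255), and that of COL9A1 with COL9A2 was -0.0237 without the 2 libraries farthest out.

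Log2 fold changes of the 52 tested chains changed sign for 11 with the principal component: -0.081 for COL4A3, -0.10 for COL4A4, 0.10 for COL6A2, -0.21 for COL6A3, -0.32 for LAMA2, -0.13 for LAMC1, -0.15 for COL12A1, -0.033 for COL24A1, 0.36 for COL9A2, -0.28 for COL21A1 and 0.030 for COL28A1. They did so for 7 without follicular 1 and 3: -0.014 for COL1A2, -0.082 for COL6A3, -0.18 for LAMA2, -0.13 for COL21A1, -0.030 for COL5A3, -0.0092 for COL24A1 and 0.055 for COL9A2. Upper-quartile scaling gave 0.0055 for COL4A1 and 0.00052 for LAMB1, and voom with quality weights -0.27 for COL25A1. For COL9A3 the value was 0.040 with limma-voom and 0.037 with the replicate block. COL11A2 and COL23A1 also changed sign with RLE scaling, DESeq2 and quality weights, COL11A2 with the block and COL16A1 with quality weights. Without single libraries 15 chains crossed 0: -0.0068 to 0.14 for COL1A1, -0.038 to 0.22 for COL25A1, -0.081 to 0.038 for COL4A1, -0.10 to 0.040 for COL6A2, -0.0020 to 0.32 for COL6A3, -0.20 to 0.12 for COL9A3, -0.081 to 0.35 for LAMA2, -0.065 to 0.028 for LAMB1, -0.013 to 0.16 for LAMB3, -0.069 to 0.73 for COL14A1, -0.058 to 0.088 for COL11A2, -0.041 to 0.085 for COL16A1, -0.27 to 0.064 for COL9A2, -0.078 to 0.54 for COL21A1 and -0.090 to 0.077 for COL23A1. The cause was not tested. The 11 chains with an unadjusted p under 0.05 were higher in luteal in every fit. Depth limits COL6A5, COL19A1 and COL21A1, with under 10 reads in some libraries.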
